A study of Rattus norvegicus with 6 samples.

Results

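Immediate-early and early stress response genes were compared between vascular smooth muscle cells (VSMCs) of the parenchymal arterioles and mid-capillary pericytes (mcPCs) of the rat brain. The set holds 51 genes, matched by symbol to the rows of the table of the series. A row was found for 49 of them, out of 14607 listed genes. Ier2, an early-response transcription regulator, and Mcl1, an anti-apoptotic protein of the BCL2 family, had no row.

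Messenger RNA was sequenced from 3 VSMC samples and 3 mcPC samples, all freshly isolated from the cortex of male Sprague-Dawley rats aged 4 to 5 weeks, with the tissue of several rats pooled in each isolation. The paper describes 3 independent experiments in which both cell types came from the same digest, so the samples are paired by isolation. No treatment separated the groups, and both were obtained by enzymatic digestion and magnetic sorting. VSMCs came from arterioles kept on a mesh filter, which were digested again with Liberase TM and trypsin, depleted of cells labelled for CD31 or CD11b, and sorted positively with the lectin GSA-FITC. mcPCs were the cells of the filtrate left after a mild digestion with Liberase DL and removal of cells labelled for CD31, CD11b, GLAST or O4. Cell type and isolation route therefore cannot be told apart for any value below.

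Immediate-early genes are transcribed within minutes of a stimulus, without new protein synthesis, from promoters bound by factors that are already present, such as SRF with its partners, CREB and NF-κB. Their products include transcription factors (FOS, JUN, EGR, NR4A and KLF proteins) that drive later genes, and inhibitors (DUSP phosphatases, ZFP36, SOCS3) that end the response. The transcripts are mostly short-lived. In vascular and neural tissue they are known to respond to growth factors, depolarization, stretch, and also to tissue dissociation.

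Most of these genes had far higher mean levels in VSMCs than in mcPCs. The values used are the authors' means per cell type, and neither an SD nor a test between samples is given here for any gene, since the errors and tests of the authors' own comparison were not used. For each gene the log2 ratio of the authors' mean normalized counts (mcPC over VSMC, pseudocount of 1) was computed, so that a negative value means a higher level in VSMCs. Of the 49 genes, 39 (79.6%) were at least 2-fold higher in VSMCs, against 13.8% of all listed genes. A further 4 (8.16%) were at least 2-fold higher in mcPCs, against 21.6% of all listed genes, and 6 lay between these limits. The median log2 ratio was -2.99 for the 49 genes and 0.01 for all listed genes, and 44 of the 49 were below 0. At least 4-fold higher in VSMCs were 32 of the 49 genes, against 5.64% of all listed genes. At least 8-fold higher were 24 of the 49, against 2.85%, and at least 16-fold higher 7 of the 49, against 1.49%. The share of all genes past the limit differs with abundance. Among the 1461 listed genes with the highest mean normalized counts, 29% were at least 2-fold higher in VSMCs and 13.5% in mcPCs. With a minimum of 0.8 TPM in VSMCs these shares were 15.7% and 13%, and with a minimum of 100 mean normalized counts 14.4% and 17.4%. These minima were passed by 47 and 48 of the 49 genes, and 28 were among the 1461. A gene can enter such a selection through its level in VSMCs alone, so no direction is read from the genes that entered.

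**Figure D1:**
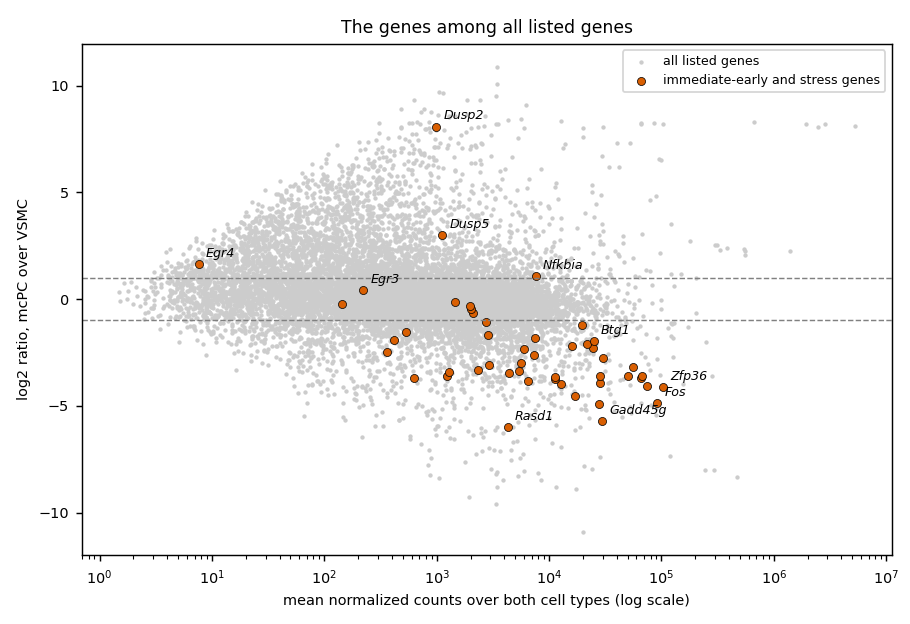
Log2 ratio of the authors' mean normalized counts (vertical axis, mcPC over VSMC) against the mean over both cell types (horizontal log axis) for all 14607 listed genes in grey and the 49 immediate-early and stress genes in orange. Dashed lines mark the 2-fold limits, and 39 of the 49 points lie below the lower line against 4 above the upper one.

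Some facts of the whole series bear on these levels. In units of 1e6 reads, the mean depth summed over genes was 62.0 for a VSMC sample compared with 48.0 for a mcPC sample. Transcripts of 15 erythrocyte and hemoglobin genes took 66.6% of all TPM (a transcript level corrected for length and scaled to the same total in every library) in mcPCs and 0.865% in VSMCs. The TPM of every other gene in mcPCs is lowered by that share, and the log2 ratio of mean TPM of the median listed gene was -1.79. Normalized counts are therefore used between cell types, and TPM within a cell type. The labels fit the marker genes in that 10 of 10 VSMC markers were at least 2-fold higher in VSMCs and 8 of 11 pericyte markers at least 2-fold higher in mcPCs. These limits were passed by 13.8% and 21.6% of all listed genes. In mcPCs, 8 of 8 listed microglia and macrophage markers were also at least 2-fold higher, with a summed level of 158 TPM against 1.73 TPM in VSMCs, as were 11 of 14 endothelial, 5 of 6 astrocyte and 5 of 6 oligodendrocyte markers. The summed levels of these lists in VSMCs and mcPCs were 615 and 280 TPM for endothelial, 14.6 and 22.5 TPM for astrocyte and 19.8 and 18.4 TPM for oligodendrocyte markers. Most of the endothelial sums came from Esam (487 and 184 TPM) and Slc2a1 (115 and 23.9 TPM). Both were inside the 2-fold limit in normalized counts, whereas Cldn5, past it, had 0.643 and 15.4 TPM. Most of the microglia and macrophage sum in mcPCs came from Lyz2 (131 TPM) and Ptprc (15.1 TPM). The microglial genes Tmem119 and Cx3cr1 had only 0.408 and 0.978 TPM there. The erythrocyte share lowers the mcPC sums, so no direction between the cell types is read from the sums. In bulk RNA, fewer cells of a type and less RNA per cell cannot be told apart.

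In VSMCs the 49 genes together made up 31870 TPM, or 3.19% of all TPM. In mcPCs they summed to 924 TPM, or 0.0926%. With the erythrocyte genes left out of the totals, the shares were 3.22% and 0.277%. The median gene of the set stood at 248 TPM in VSMCs against 12.8 TPM in mcPCs, against 12.7 and 3.59 TPM over all listed genes. Ranked by TPM within VSMCs, 8 of the 49 were among the top 100 genes, namely Fos, Zfp36, Junb, Gadd45g, Nr4a1, Gadd45b, Egr1 and Jun. None of the 49 was among the top 100 in mcPCs, where the highest was Btg1 at rank 430. The set was still not low in mcPCs, since 38 of the 49 lay above the median listed gene and the median percentile was 80.5, compared with 95.7 in VSMCs. The order of the genes was similar in both cell types, with a Spearman's rho of 0.758 between the mean TPM of the 49 genes and 0.835 over all listed genes. Both describe genes of the same table of means, and genes cannot stand in for replicates.

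**Figure D2:**
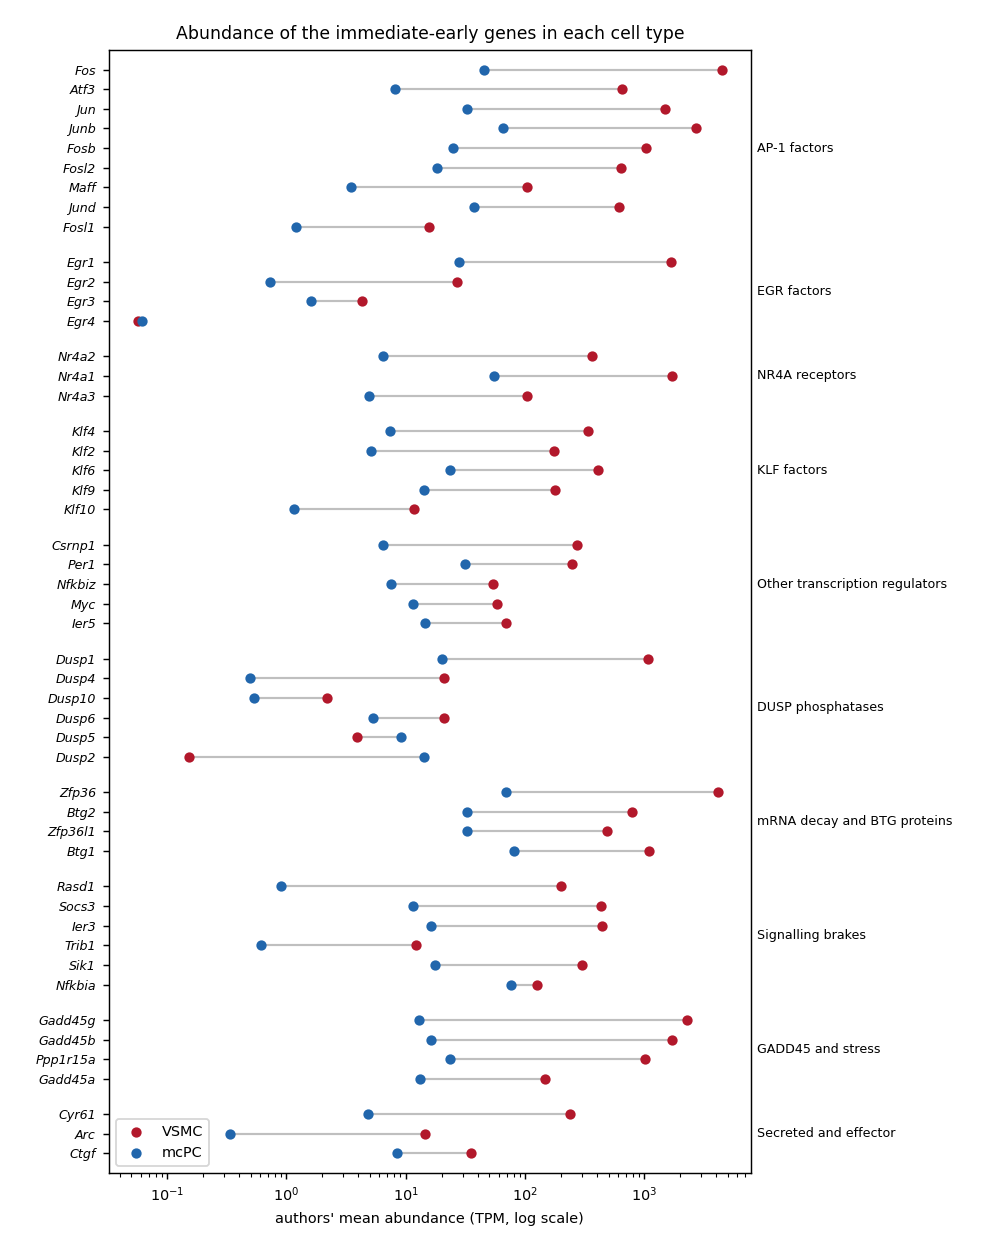
Authors' mean TPM (horizontal log axis) of each of the 49 genes in VSMCs (red) and mcPCs (blue), grouped by role and ordered by ratio within a role. The red point lies to the right for all genes except Dusp2, Dusp5 and Egr4, on a scale where the median listed gene has a log2 ratio of -1.79.

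Among the AP-1 factors, which pair as basic leucine zipper dimers at AP-1 sites, 9 of 9 were at least 2-fold higher in VSMCs. Fos, the prototype immediate-early gene, had 4441 TPM in VSMCs against 45.2 TPM in mcPCs, from 742885 and 13623 reads over the 3 samples of each cell type. Its mean normalized counts were 177458 and 6119, a log2 ratio of -4.86 with a 95% interval of -4.88 to -4.83 (exact, conditional on the total reads). Such intervals cover counting error only, not the spread between isolations, and are narrow because the reads are many. Fos was the most abundant gene of the set in VSMCs, at rank 19 of all listed genes.

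Atf3, a stress-induced member of the ATF/CREB family, had 652 TPM in VSMCs against 8.15 TPM in mcPCs. Its normalized counts were 32463 and 1378 and its log2 ratio -4.56 (interval -4.61 to -4.51, from 132391 and 3099 reads). Junb, which dimerizes with FOS proteins, had 2705 and 65.5 TPM. Its normalized counts of 123223 and 10111 gave a log2 ratio of -3.61 (interval -3.63 to -3.59, from 512934 and 22710 reads). These differed in size but not in direction from the other JUN and FOS genes.

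Jun, the main transactivating partner of FOS, had a log2 ratio of -3.71 at 1474 and 32.4 TPM. Fosb stood at -3.60, the FOS-related Fosl2 at -3.35 and the small MAF factor gene Maff at -3.10. Ratios closer to 0 were seen for Jund (-2.21), whose product is known for a more constant level than that of Jun, and for Fosl1 (-1.91), the least abundant gene of the family at 15.7 TPM in VSMCs. The make-up of the family also differed. Fos held 38.1% of the summed TPM of the 9 genes in VSMCs and 19.1% in mcPCs, where Junb held the largest share at 27.7%. Jund held 5.28% in VSMCs and 15.8% in mcPCs.

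The EGR zinc finger factors were divided. Egr1, the serum-induced member, had 1660 TPM in VSMCs against 27.7 TPM in mcPCs, and its normalized counts of 140354 and 8211 gave a log2 ratio of -4.10. Egr2 had a log2 ratio of -3.41 at 27.1 and 0.733 TPM. Egr1 and Egr2 were thus both much higher in VSMCs, and Egr3 and Egr4 were not.

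Egr3, a target of EGR1 in other cells, had 191 normalized counts in VSMCs and 254 in mcPCs. Its log2 ratio was 0.41 (interval 0.25 to 0.57, from 821 and 545 reads), but its TPM was 4.26 in VSMCs and 1.62 in mcPCs, a log2 ratio of -1.40 on a scale where the median listed gene stood at -1.79. Centred on that median, the TPM ratio of Egr3 was 0.40. Egr4 was near the bottom of the table, with 0.0569 TPM in VSMCs against 0.062 TPM in mcPCs. Its 3.18 and 12.1 normalized counts gave a log2 ratio of 1.65, or 1.93 with a pseudocount of 0. The latter has an interval of 0.93 to 2.99 from only 14 and 25 reads over all samples. A 2-fold difference is thus not resolved by the depth. Egr1 made up 98.1% of the EGR transcripts by TPM in VSMCs and 92% in mcPCs.

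All 3 NR4A orphan nuclear receptors, which act without a known ligand, were at least 2-fold higher in VSMCs. Nr4a1 had 1700 TPM in VSMCs against 55.2 TPM in mcPCs, with 101294 and 11333 normalized counts. Its log2 ratio was -3.16 (interval -3.18 to -3.14, from 394783 and 27491 reads). Nr4a2 stood at -3.98 and Nr4a3 at -2.60. Nr4a1 was the leading member in both cell types, with 78.4% of the family's TPM in VSMCs and 82.9% in mcPCs.

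The 5 Krüppel-like factors were all at least 2-fold higher in VSMCs, over a wide range. Klf4, a regulator of smooth muscle phenotype, had a log2 ratio of -3.73 (334 and 7.36 TPM), and Klf2, a flow-responsive gene of endothelium, one of -3.33. Klf6 followed at -2.36, the glucocorticoid-responsive Klf9 at -1.82 and the TGFβ-induced Klf10 at -1.55. Klf6 was the most abundant of them in both cell types, with 412 TPM in VSMCs against 23.5 TPM in mcPCs.

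Of the 5 other transcription regulators with a row, 3 passed the 2-fold limit, all higher in VSMCs. Csrnp1, a nuclear protein induced through AXIN1, had a log2 ratio of -3.64. The circadian repressor Per1 stood at -1.20 and Nfkbiz, an atypical nuclear IκB protein, at -1.07. With counts scaled after leaving out the erythrocyte genes these last values became -0.99 and -0.91, inside the 2-fold limit. Myc, the growth-promoting transcription factor, had a log2 ratio of -0.67 (57.6 and 11.6 TPM), and Ier5, a regulator of the heat shock factor HSF1, one of -0.47. Both were inside the limit in the normalized counts.

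The DUSP phosphatases, which remove the activating phosphates from MAP kinases, spread over the widest range of any role, from -3.95 to 8.07. Dusp1, a nuclear phosphatase for p38, JNK and ERK, had 1064 TPM in VSMCs against 20.1 TPM in mcPCs and a log2 ratio of -3.95. Dusp4, another nuclear member, stood at -3.59 with a low level of 20.9 and 0.497 TPM. Dusp10, which prefers p38 and JNK, was at -0.25, inside the limit. The cytoplasmic ERK phosphatase Dusp6 had 20.8 and 5.33 TPM and 1532 and 1383 normalized counts. Its log2 ratio of -0.15 (interval -0.21 to -0.09, from 6331 and 3014 reads) became 0.03 with counts scaled without the erythrocyte genes, so that no direction can be given for it.

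Dusp2 and Dusp5 went the other way. Dusp2, a nuclear phosphatase known from activated immune cells, had 0.154 TPM in VSMCs against 14.1 TPM in mcPCs. Its normalized counts were 6.32 and 1971, and its log2 ratio was 8.07, which became 8.28 with a pseudocount of 0 and 6.92 with a pseudocount of 10. The interval of 7.72 to 8.91 belongs to the ratio with a pseudocount of 0. Over the 3 samples, 25 reads fell on Dusp2 in VSMCs, compared with 4430 in mcPCs. Dusp5, a nuclear ERK phosphatase, had 3.87 TPM in VSMCs against 9.19 TPM in mcPCs. Its normalized counts of 247 and 1996, from 1011 and 4469 reads, gave a log2 ratio of 3.01 (interval 2.92 to 3.11).

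Dusp2 and Dusp5 were the only genes of the set that were at least 4-fold higher in mcPCs, a limit passed by 12% of all listed genes. Dusp2 was also past 8-fold and 16-fold, limits passed by 6.93% and 4.07% of all listed genes. Dusp5 lay at the 8-fold limit, which its interval of 2.92 to 3.11 spans. Its log2 ratio was 2.99 after centring and 2.96 with a pseudocount of 10, both short of that limit. Markers of immune cells were also higher in mcPCs, but this direction was not particular to them. At least 2-fold higher in mcPCs were 8 of 11 pericyte, 11 of 11 erythrocyte and 11 of 14 endothelial markers. The same held for 5 of 6 astrocyte, 5 of 6 oligodendrocyte and 5 of 5 neuronal markers, against 21.6% of all listed genes. Among the microglia and macrophage markers, Ptprc, the pan-leukocyte phosphatase CD45, had 0.0659 TPM in VSMCs against 15.1 TPM in mcPCs, and the lysozyme gene Lyz2 had 0.768 and 131 TPM. The T cell coreceptor gene Cd8a had 0.0272 and 10.9 TPM, and the 3 listed markers of other leukocytes together 0.925 and 22.2 TPM. No row was found for Aif1, C1qc, Cd163, Itgam, Mrc1 and P2ry12, nor for 9 of the 12 other leukocyte markers. The part of immune cells, or of the other cell types, in the levels of Dusp2, Dusp5 and Nfkbia was not tested. By TPM, the DUSP transcripts were 95.7% Dusp1 in VSMCs, but 40.4% Dusp1, 28.3% Dusp2 and 18.5% Dusp5 in mcPCs.

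The genes for mRNA decay and BTG proteins were 4 of 4 at least 2-fold higher in VSMCs. Zfp36, whose product tristetraprolin binds AU-rich elements and speeds the decay of short-lived transcripts, had 4153 TPM in VSMCs against 69.3 TPM in mcPCs. Its normalized counts were 196519 and 11250 and its log2 ratio -4.13 (interval -4.15 to -4.11, from 825391 and 24654 reads). It was the second most abundant gene of the set in VSMCs by TPM, after Fos.

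The antiproliferative gene Btg2 stood at -2.78 and Zfp36l1, a paralog of Zfp36, at -2.12. Btg1, a recruiter of the deadenylase complex, had 1099 TPM in VSMCs against 80.7 TPM in mcPCs, and 39895 and 10110 normalized counts. Its log2 ratio was -1.98 (interval -2.0 to -1.96, from 169076 and 22449 reads). Zfp36 made up 63.7% of the summed TPM of the 4 genes in VSMCs and 32.2% in mcPCs, where Btg1 led with 37.5%.

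Among the signalling brakes, 5 of 6 were at least 2-fold higher in VSMCs and 1 was higher in mcPCs. Rasd1, a dexamethasone-induced RAS-like GTPase, had the lowest log2 ratio of the set. It had 199 TPM in VSMCs against 0.897 TPM in mcPCs, and its normalized counts were 8425 and 130 (log2 ratio -6.00, interval -6.19 to -5.85, from 35163 and 288 reads). Rasd1 was at rank 772 in VSMCs and at rank 11191 in mcPCs, so it was an abundant transcript in VSMCs and a rare transcript in mcPCs.

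Socs3, an inhibitor of JAK and STAT signalling, had a log2 ratio of -3.49, and the survival gene Ier3 one of -2.99. Trib1, a pseudokinase scaffold for COP1, followed at -2.49, and Sik1, a salt-inducible kinase that restrains the CREB coactivators, at -2.30. Nfkbia, the gene of IκBα and itself a target of NF-κB, was the exception. It had 125 TPM in VSMCs against 76.5 TPM in mcPCs, but 4927 and 10280 normalized counts, a log2 ratio of 1.06 (interval 1.03 to 1.09, from 20664 and 22789 reads). On the ratio of TPM as it stands the value was -0.71, so the direction for Nfkbia turned with the scale. After centring that ratio on its median over all genes it was 1.08. Within mcPCs Nfkbia held 62.0% of the summed TPM of the 6 brakes, and within VSMCs 8.33%.

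The GADD45 and stress genes were 4 of 4 at least 2-fold higher in VSMCs. Gadd45g, a small protein that activates the p38 and JNK kinase cascade, had 2271 TPM in VSMCs against 12.8 TPM in mcPCs. Its normalized counts were 57993 and 1101 and its log2 ratio -5.72 (interval -5.78 to -5.66, from 241744 and 2417 reads). Its paralog Gadd45b had 1691 and 16.4 TPM. Normalized counts of 53454 and 1796, from 222864 and 3970 reads, gave Gadd45b a log2 ratio of -4.89 (interval -4.94 to -4.85). Gadd45a, the p53-responsive member of the family, lay much closer to 0 at -1.67, so its share of the summed TPM of these 4 genes was 2.87% in VSMCs and 20.1% in mcPCs. Ppp1r15a, the GADD34 subunit that directs dephosphorylation of eIF2α, stood at -3.61 with 1002 and 23.5 TPM.

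Of the secreted and effector genes, Cyr61, a matricellular protein of the CCN family, had a log2 ratio of -3.83. Arc, a cytoskeletal protein best known from neurons, stood at -3.70 but at a low level of 14.5 and 0.334 TPM. Ctgf, a second CCN gene and like Cyr61 a known target of YAP, was inside the limit at -0.33. Of 9 neuronal markers, 5 had a row. All 5 were at least 2-fold higher in mcPCs, a limit passed by 21.6% of all listed genes. Their summed level was 3.29 TPM in VSMCs against 24.2 TPM in mcPCs, of which Tubb3 gave 15.7 TPM. No row was found for Rbfox3, Slc17a7, Stmn2 and Syt1, and the part of neurons in the level of Arc was not tested.

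**Figure D3:**
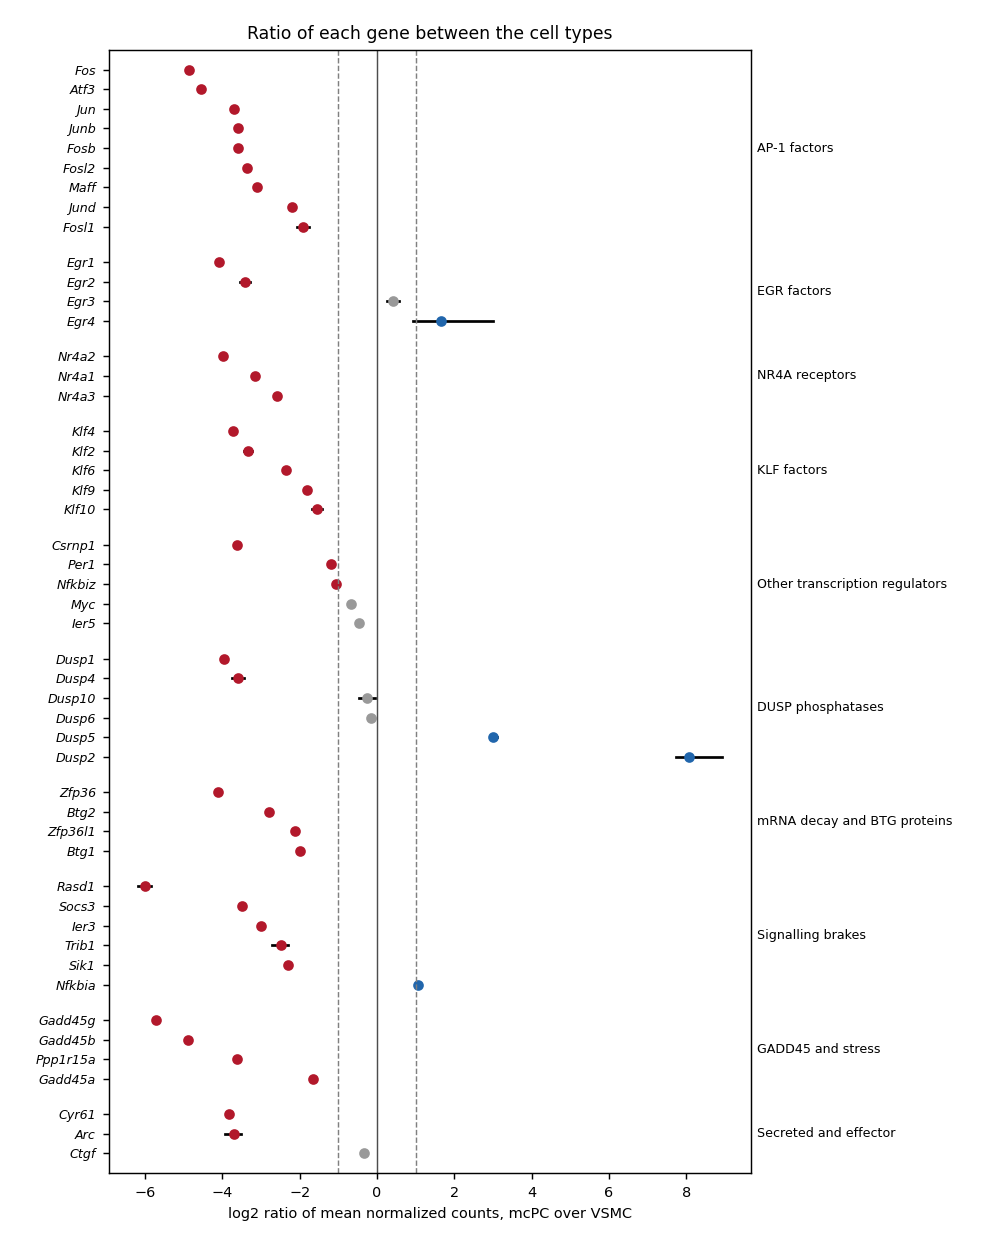
Log2 ratio of the authors' mean normalized counts (mcPC over VSMC) of the 49 genes by role, with exact 95% counting intervals as black lines where they are wider than the point. The points use a pseudocount of 1 and the intervals none. Points are red at or below -1, blue at or above 1 and grey between, and the blue points are Dusp2, Dusp5, Egr4 and Nfkbia.

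Promoter sequences of 38 of the 51 genes were found in the RefSeq table (GRCr8), each with 1 start site. Windows of 250 bases before and 50 bases after the start were searched on both strands. The remaining 13 are Fos, Jun, Atf3, Egr3, Nr4a3, Ier3, Klf2, Klf10, Dusp4, Myc, Csrnp1, Trib1 and Arc. The motifs were the CArG box bound by SRF, the κB motif, the cyclic AMP response element (CRE, TGACGTCA), the AP-1 site (TGACTCA or TGAGTCA) and the EGR site (GCGTGGGCG). A CArG box was matched in 5 of the 38 genes (13.2%) and in 1.77% of the 27457 genes in the table. A CRE was matched in 6 (15.8%, against 2.0%), a κB motif in 8 (21.1%, against 8.16%), an EGR site in 2 (5.26%, against 0.605%) and an AP-1 site in 1 (2.63%, against 5.04%). These are matches of letters and do not show binding in these cells.

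The genes with a CArG box were Egr1 and Dusp5, with 2 boxes each, and Egr2, Klf6 and Zfp36. Those of Egr2, Klf6, Zfp36 and Dusp5 are shown, because Dusp5 shares the motif with the others but lay on the other side of the 2-fold limit, and the sequence of Egr1 is not printed. The sequences are on the strand of the gene, 5′ to 3′, with the box in capitals: Egr2 from chr20:21054490-21054549 (minus strand), Zfp36 from chr1:92799109-92799165 (minus), Klf6 from chr17:69458645-69458704 (minus) and Dusp5 from chr1:262543667-262543736 (plus). The boxes of Dusp5 lie side by side without a gap.
Egr2: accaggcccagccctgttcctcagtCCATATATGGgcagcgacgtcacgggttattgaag
Zfp36: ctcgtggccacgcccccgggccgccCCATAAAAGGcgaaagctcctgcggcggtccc
Klf6: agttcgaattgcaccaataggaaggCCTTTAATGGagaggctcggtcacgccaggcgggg
Dusp5: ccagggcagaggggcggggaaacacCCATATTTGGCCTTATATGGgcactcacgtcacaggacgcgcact

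The log2 ratios of these 4 genes were -3.41 for Egr2, -4.13 for Zfp36, -2.36 for Klf6 and 3.01 for Dusp5. The box of Zfp36 begins 32 bases before the start and that of Klf6 201 bases before it. A CArG box in this window was thus found in genes of both directions.

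The genes with a CRE were Dusp1, Jund, Maff, Btg2 and Ppp1r15a, besides Ier2, which had no row. They are shown because the 5 with a value were all at least 2-fold higher in VSMCs. That limit was passed by 39 of the 49 genes (79.6%), so 5 genes are too few to set the CRE apart from the set. The log2 ratios were -3.95 for Dusp1, -3.61 for Ppp1r15a, -3.10 for Maff, -2.78 for Btg2 and -2.21 for Jund. Jund and Maff are also the genes with an EGR site. The CRE is in capitals, from chr10:17184704-17184761 (plus strand), chr1:105139630-105139687 (minus), chr7:112792711-112792768 (plus), chr13:48087859-48087916 (minus) and chr16:18769960-18770017 (minus), in the order of the lines.
Dusp1: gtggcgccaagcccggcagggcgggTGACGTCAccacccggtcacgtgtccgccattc
Ppp1r15a: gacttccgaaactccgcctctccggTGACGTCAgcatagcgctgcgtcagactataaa
Maff: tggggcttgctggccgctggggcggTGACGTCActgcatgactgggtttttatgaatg
Btg2: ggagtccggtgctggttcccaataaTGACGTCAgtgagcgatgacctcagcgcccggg
Jund: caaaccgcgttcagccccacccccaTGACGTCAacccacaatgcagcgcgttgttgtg

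The κB motif was matched in Nfkbia, Nfkbiz, Socs3, Nr4a1, Ctgf, Jund, Egr4 and Mcl1. Those of Nfkbia and Nfkbiz, both genes of IκB proteins, lie close to the start and are shown because the log2 ratios of these genes fell on opposite sides, at 1.06 and -1.07. The motif is in capitals, from chr6:78597073-78597128 (minus strand) for Nfkbia and chr11:58251683-58251720 (plus strand) for Nfkbiz.
Nfkbia: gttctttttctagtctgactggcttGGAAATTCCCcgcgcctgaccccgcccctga
Nfkbiz: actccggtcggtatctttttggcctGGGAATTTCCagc

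**Figure D4:**
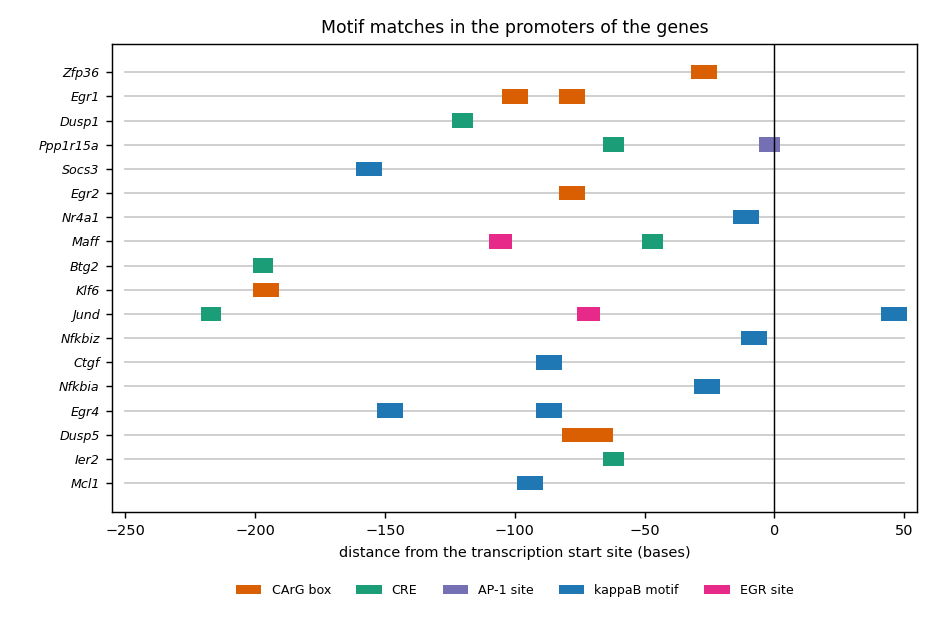
Position of motif matches (coloured boxes) relative to the transcription start site (black line, in bases) in the promoters of the 18 genes with a match, ordered from the lowest to the highest log2 ratio, with Ier2 and Mcl1 last. The 2 CArG boxes of Dusp5 adjoin, and the CREs lie between 221 and 44 bases before the start.

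Genes that act upstream of these promoters had medians closer to 0 than the immediate-early genes, and their counts are to be read against the 13.8% and 21.6% of all listed genes at least 2-fold higher in VSMCs and in mcPCs. Of 7 listed genes for SRF and its partners (Mkl2 had no row), 3 (42.9%) were at least 2-fold higher in VSMCs and 1 (14.3%) in mcPCs, with a median log2 ratio of -0.90. Srf itself stood at -1.98. The extremes were Myocd, the smooth muscle coactivator of SRF, at -7.12, and the LIM domain cofactor gene Fhl2 at 1.98. Elk1, an ETS partner of SRF, was at -0.90, and its relatives Elk4 and Elk3 were at 0.19 and 0.93.

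Of 16 MAP kinases and their activators, 3 were at least 2-fold higher in VSMCs and 1 in mcPCs, with a median of -0.18. The range ran from the JNK gene Mapk9 at -1.41 to the p38 gene Mapk11 at 2.88. The ERK gene Mapk3 stood at 0.09.

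Of 10 genes of CREB and protein kinase A signalling, 5 (50%) were at least 2-fold higher in VSMCs and 1 (10%) in mcPCs, with a median of -0.84. Crem, which gives rise to an inducible repressor of CRE sites, was lowest at -2.61 and the calcium-dependent kinase gene Camk4 highest at 6.30, from 15 reads in VSMCs and 712 in mcPCs. Creb1 was inside the limit at -0.60.

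Of 12 NF-κB genes, 1 was at least 2-fold higher in VSMCs and 2 in mcPCs, and the median was 0.09. Bcl3, a nuclear IκB protein, was lowest at -1.34. Tnfaip3, the ubiquitin-editing inhibitor A20, was highest at 4.74 with 3.68 TPM in VSMCs against 28.9 TPM in mcPCs, and Nfkbib, the gene of IκBβ, was at 1.99. The subunit genes Rela and Nfkb1 were inside the limit at -0.10 and 0.27. Nfkbie, the gene of a further IκB protein, was inside the limit at -0.46, so the inhibitors of the pathway did not share a direction. The part of the immune cells in the levels of Tnfaip3 and Nfkbib was not tested.

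Paralogs of the members were nearer to the whole table than the members. In 46 rows, 11 (23.9%) were at least 2-fold higher in VSMCs and 7 (15.2%) in mcPCs, against 13.8% and 21.6% of all listed genes. The median was -0.49, with Klf7 having 2 rows and Batf3 and Socs2 none. Mafk was lowest at -3.02 and Rasd2, the paralog of Rasd1, highest at 3.64, against -6.00 for Rasd1. Zfp36l2 stood at 1.45, against -4.13 for Zfp36 and -2.12 for Zfp36l1. Members of the same protein family were thus found on both sides of the 2-fold limit.

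**Figure D5:**
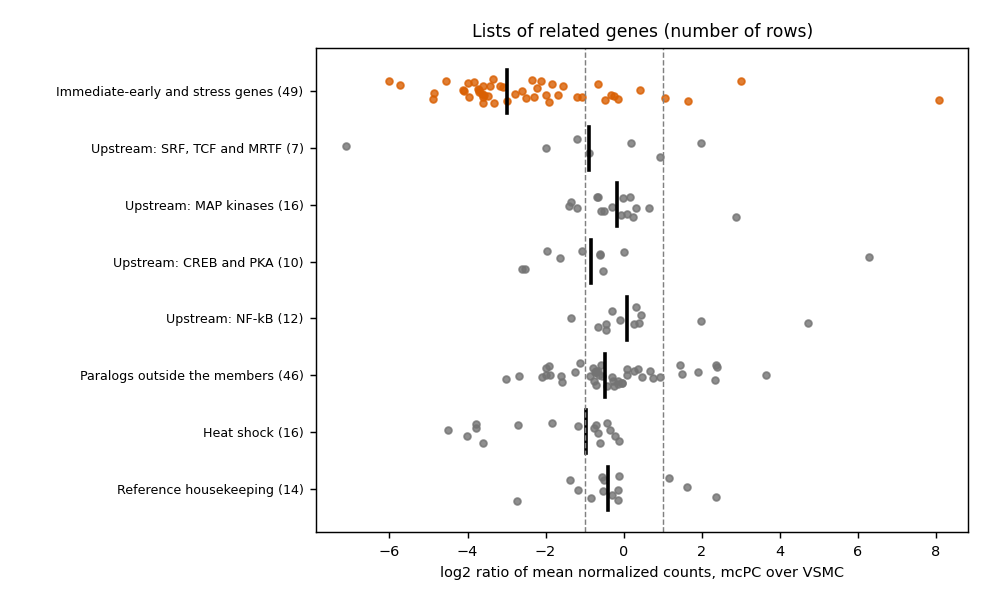
Log2 ratio of the authors' mean normalized counts (horizontal axis, mcPC over VSMC) for the 49 immediate-early and stress genes (orange) and for lists of related genes (grey), 1 point per row of the table, with the median of each list as a black bar. The median is -2.99 for the immediate-early and stress genes and lies between -0.96 and 0.09 in the other lists, and the vertical scatter within a list has no meaning.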

How the data were processed

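RNA-Seq reads of 3 VSMC and 3 mcPC samples, each sequenced in 4 runs, were trimmed and filtered by the authors with Eoulsan, quantified with Salmon 0.8.0 on the Ensembl cDNA of Rnor_6.0, summed per gene with tximport and normalized with DESeq2. The deposited table lists genes with reads in every sample and gives means per cell type. Its TPM are the authors' mean abundances. Its estimated counts are the authors' means per run of Salmon's expected counts, taken as such because 69.8% (VSMC) and 71.5% (mcPC), within 0.01 read, are whole after multiplication by 12 runs. They were multiplied by 12 and rounded to give reads for counting intervals (Clopper-Pearson, 95%). These intervals belong to the ratio of normalized counts without a pseudocount, which departs from the printed ratio where reads are few. The normalized counts are signal values, the authors' counts divided by DESeq2 factors for depth and length. The mean lengths deposited by the authors are effective transcript lengths. The authors' log2 fold changes, standard errors, p-values, adjusted p-values and overall mean are also in the table and were not used.

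Because the table gives means, the tests planned for counts per sample were not run, and precision between samples was not estimated here. Log2 ratios used a pseudocount of 1 and a limit of 2-fold, without a filter on low values. Alternatives were TPM ratios, raw and centred, counts scaled without 15 erythrocyte and hemoglobin genes, centring, pseudocounts of 0 and 10, minima of 0.8 TPM in VSMCs or 100 normalized counts, and limits of 1.5-fold and 4-fold. The share among the 1461 genes of highest mean count was added after seeing the data. The members and lists were chosen with earlier results of these data known. Every gene of the set with a row is named, with full values for the 6 lowest and 6 highest ratios, the 6 most abundant in either cell type and those whose direction changed with the scale while past 2-fold on some scale. For each related list the lowest and highest ratio are named, except for some genes that are not reported here, and further genes of these lists were chosen after their values were seen. Steps were tested on simulated data. Versions were numpy 2.4.6, scipy 1.17.1, pandas 2.3.3 and matplotlib 3.10.9 under Python 3.11.15.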

Additional observations from a re-analysis of the deposited data

How the results depend on the processing

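The number of genes at least 2-fold higher in VSMCs was 39 under centring, both other pseudocounts and both filters, 37 with counts scaled without erythrocyte genes (Per1 and Nfkbiz fell inside the limit) and 45 on the ratio of TPM as it stands. Among the 49 genes, 43 to 46 had a ratio below 0 on the scales and pseudocounts tried. On the ratio of TPM as it stands 2 genes were higher in mcPCs, the median was -4.77, Nfkbia turned to -0.71, and 74.8% and 8.17% of all listed genes passed the limit in VSMCs and in mcPCs. Counts scaled without erythrocyte genes gave a median of -2.68. With at least 0.8 TPM in VSMCs, 2 genes were higher in mcPCs (Dusp2 and Egr4 dropped out), the median was -3.10 and 13% of genes passed in mcPCs. A limit of 1.5-fold gave 23.3% of all genes in VSMCs, and one of 4-fold gave 2 genes in mcPCs with 5.64% and 12% of all genes. With a pseudocount of 10, Egr4 was inside the limit. No paired analysis was possible because the table holds means per cell type and no values per sample, and for the same reason the replicate block, leaving out each replicate and TMM against DESeq2 scaling were not run. A gene passes the minimum in VSMCs through its level there, so the values under it are no support for a direction. The number of reads limits Egr4 and, in VSMCs, Dusp2.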

Other observations

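Heat shock genes, which encode chaperones and their cofactors, are another group known for rapid induction. Of 16 listed, 8 were at least 2-fold higher in VSMCs and 0 in mcPCs, against 13.8% and 21.6% of all listed genes. The median log2 ratio was -0.96. The small heat shock protein gene Hspb1 was lowest at -4.51 with 1918 TPM in VSMCs and 24.2 TPM in mcPCs, followed by the inducible Hspa1a at -4.01, Hspb8 at -3.79, Hspa1b at -3.78 and the cochaperone gene Bag3 at -3.60. Hspa1a and Hspa1b are near-identical copies whose reads the quantification may have divided, so their separate values are uncertain. The constitutive Hsp90ab1 was highest at -0.12 and Hsf1, the factor that induces these genes, stood at -0.36. The 3 scales for this list gave medians of -0.96 on normalized counts, -2.74 on TPM as it stands and -0.94 on centred TPM.

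Among 14 genes often used as references, 3 were at least 2-fold higher in VSMCs and 3 in mcPCs, with a median of -0.40. Each count is 21.4% of the list, against 13.8% and 21.6% of all listed genes. Gapdh and Actb stood at -1.37 and -1.18, and Tbp, Rpl13a and Hprt1 between -0.15 and -0.12.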
